A study of Homo sapiens with 59 samples.

Results

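The mitochondrial genome of human cells carries 37 genes, and all 37 were found in the deposited table of 60675 genes by the prefix MT- of their symbols, after the table's Ensembl identifiers had been matched to GENCODE 29. They are 2 ribosomal RNA (rRNA) genes, 13 protein-coding genes and 22 transfer RNA (tRNA) genes, 28 of them transcribed from the heavy strand and 9 from the light strand of the circle. Their RNA was measured in HepG2, a human liver cancer line that keeps many hepatocyte genes on, after 24 h of treatment. The treated groups were wortmannin, an inhibitor of phosphoinositide 3-kinases, at 10 µM, and water extracts of 6 herbs at 3 doses each. Coptidis Rhizoma was given at 8.4, 42 and 210 µg/mL, because the study capped doses at the IC20, an inhibitory concentration, where this fell under 500 µg/mL. The other extracts were given at 20, 100 and 500 µg/mL. They were Scutellariae Radix, Zizyphi Fructus, Pinelliae Tuber and ginger in its dried form, Zingiberis Rhizoma, and its fresh form, Zingiberis Rhizoma Recens. All were compared with the DMSO vehicle, labelled as 0.1% DMSO on its samples and as 2% in the series text, while the labels of the extract samples give no DMSO content. Each of the 20 groups had 3 libraries except Pinelliae Tuber at 20 µg/mL, which had 2, for 59 libraries. Samples with too little RNA had been excluded, per the series text. Nothing in the labels says that replicates were separate cultures, so p-values measure the spread between these libraries only.

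Both strands of the circle are transcribed as long precursors that run through many genes. The tRNAs lie between most of the rRNA and mRNA sequences, and their excision by RNase P and ELAC2 releases the neighbouring RNAs. A poly(A) polymerase, MTPAP, then adds short tails, which complete the stop codon of several mRNAs. The heavy strand yields both rRNAs, 12 mRNAs and most tRNAs, whereas the light strand yields MT-ND6 and 8 tRNAs. The 2 rRNAs form the mitochondrial ribosome, and the 13 proteins are subunits of respiratory complexes I, III and IV and of ATP synthase, the machinery of oxidative phosphorylation on which hepatocytes rely.

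Coptidis Rhizoma, the rhizome whose main alkaloid is berberine, had more mitochondrial genes called than any other treatment, at each of its 3 doses. At 210 µg/mL it also had the most calls over all tested genes, 34.8% higher and 34.5% lower. These percentages were 23.4% and 23.5% at 42 µg/mL, and 8.58% and 7.39% at 8.4 µg/mL. The share of all counts that fell in the 37 genes was 18.3, 19.3 and 15.9% in the 3 libraries at 8.4 µg/mL, 17.4, 18.2 and 17.4% at 42 µg/mL and 11.7, 13.1 and 12.5% at 210 µg/mL, against 9.84, 9.09 and 9.88% in vehicle. In all other groups it was 8.59 to 11.6%, so all 9 Coptidis libraries stood above every other library. The summed share of the rRNA genes was higher and that of the mRNA genes lower. The 2 rRNA genes took 12.2 ± 1.11%, 13.3 ± 0.291% and 8.53 ± 0.586% of counts at 8.4, 42 and 210 µg/mL, against 2.46 ± 0.0415% in vehicle (mean ± SD, n = 3 each). The 13 mRNA genes together took 5.62 ± 0.692%, 4.34 ± 0.39% and 3.9 ± 0.272% in the same groups, all below the 7.14 ± 0.414% of vehicle with no overlap. An exact permutation test of 3 libraries against 3 cannot give a p below 0.1, and each of these differences from vehicle had that value. Shares do not tell fewer or more mitochondria per cell from less or more RNA per mitochondrion.

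**Figure D1:**
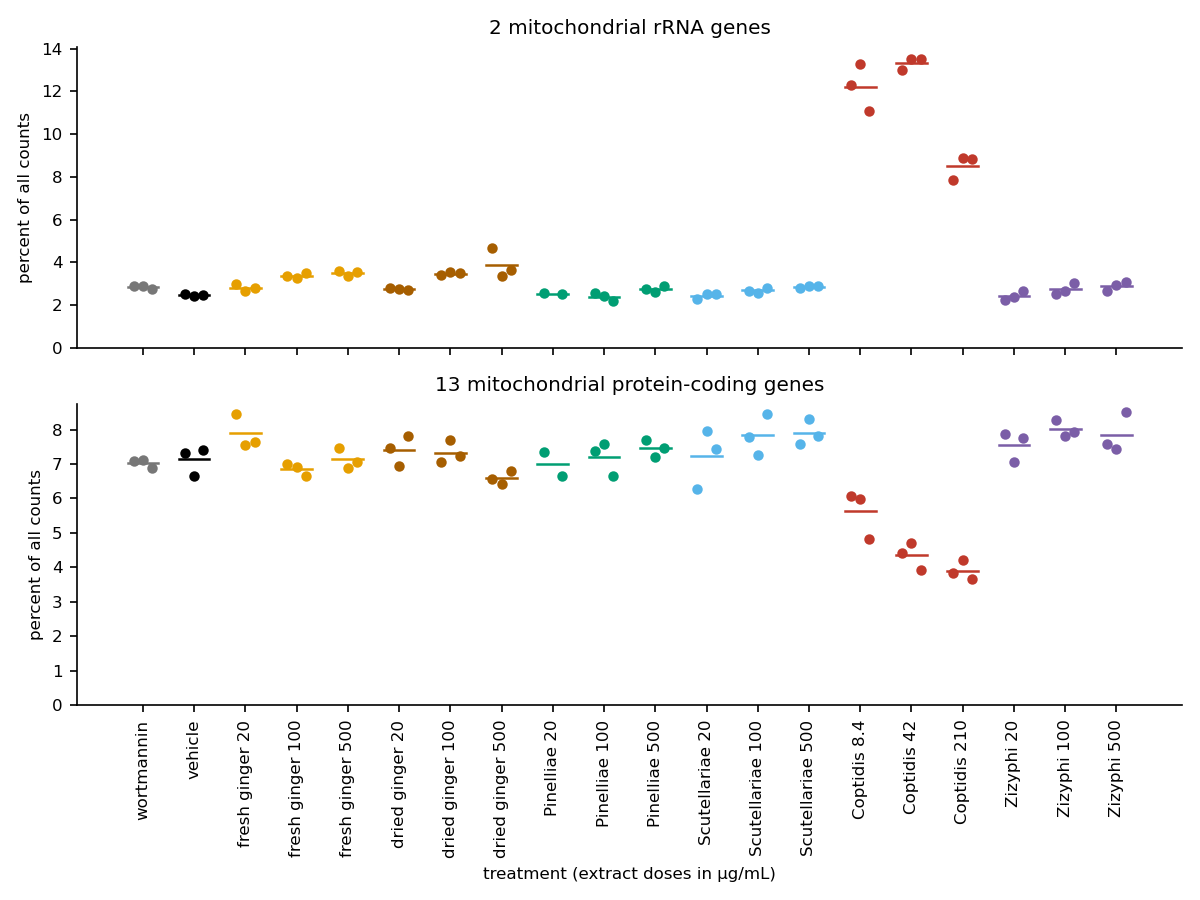
Percent of all counts in each library that fell in the 2 mitochondrial rRNA genes (top) and in the 13 mitochondrial protein-coding genes (bottom), by treatment; points are libraries and bars are group means. The 9 Coptidis libraries hold 7.85 to 13.5% in rRNA, against 2.43 to 2.51% in vehicle, and their mRNA shares, 3.67 to 6.06%, lie below those of all other libraries.

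Of the 37 genes, 15 passed the filter on low counts and could be tested: both rRNA genes and all 13 protein-coding genes. None of the 22 tRNA genes passed it. No count at all was recorded in any of the 59 libraries for 11 of them, MT-TI, MT-TW, MT-TY, MT-TK, MT-TG, MT-TR, MT-TH, MT-TS2, MT-TL2, MT-TT and MT-TP, and 3 counts, the most that a count of 0 allows, correspond to 0.0956 to 0.139 CPM (counts per 1000000 counts) at the depth of one library. Between 1 and 9 counts over all libraries were recorded for MT-TF, MT-TV, MT-TL1, MT-TN, MT-TC, MT-TD and MT-TE. MT-TQ had 56 counts, MT-TA 52, MT-TM 21 and MT-TS1 16 over all libraries, and no tRNA gene had more than 5 counts in a library. These genes are 59 to 75 bases long, shorter than the 100-base reads. The levels of the tRNAs are therefore not measured here, and no level or difference is read from these counts. MT-TM, the methionine tRNA that starts mitochondrial translation, and MT-TQ, the glutamine tRNA on the opposite strand, lie next to each other upstream of MT-ND2 and are shown because MT-TM's few counts were unevenly spread, with 20 of its 21 in the 9 Coptidis libraries. The sequences, 5′ to 3′ on the strand of the gene, are from GENCODE 29 (GRCh38), MT-TM from chrM:4402-4469 on the + strand and MT-TQ from chrM:4329-4400 on the - strand.
MT-TM: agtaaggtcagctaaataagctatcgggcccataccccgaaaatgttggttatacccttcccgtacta
MT-TQ: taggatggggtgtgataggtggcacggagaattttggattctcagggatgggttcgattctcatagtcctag

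In vehicle, the measured genes differed widely in level per length. MT-RNR2, the 16S rRNA of the large mitochondrial ribosomal subunit, led with 12802 ± 362 CPM per kb of gene (mean ± SD, n = 3). MT-CO3, MT-CO2 and MT-CO1, the core subunits of complex IV, followed with 10490.0 ± 406, 10190.4 ± 522 and 9498 ± 691 CPM per kb, and neighbours in this order overlapped between libraries. MT-ND4 had 8078 ± 824 and MT-ATP6 7453 ± 321 CPM per kb. MT-ND3, MT-ND1, MT-CYB, MT-ND2 and MT-ND4L lay between 4721 and 5772 CPM per kb, with neighbours among these 5 overlapping. MT-RNR1, the 12S rRNA of the small subunit, had 4347 ± 178 CPM per kb, below MT-ND4L and above MT-ND5 with no overlap. The lowest levels per length were those of MT-ND5 (2155 ± 89.3), MT-ATP8 (1875 ± 151) and MT-ND6 (1029.5 ± 47.6), with no overlap between them. MT-ND6, the only protein-coding gene of the light strand, thus had the lowest level of the 15. An mRNA library enriches RNA by its poly(A) tail, so the levels of the rRNAs relative to the mRNAs describe the library as well as the cell.

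Both rRNAs rose under Coptidis at every dose. MT-RNR2 had 91707, 100892 and 81319.6 CPM at 8.4 µg/mL, 92957, 96884 and 95070.3 CPM at 42 µg/mL and 55253, 63760.0 and 62641 CPM at 210 µg/mL, against 20382, 19317 and 20176 CPM in vehicle. All 9 treated libraries were far above the 3 vehicle libraries, and the libraries at 42 µg/mL lay within the range of those at 8.4 µg/mL. Its log2 change was 2.19 ± 0.08 (SE, adjusted p = 6.3e-27) at 8.4 µg/mL, 2.25 ± 0.08 (SE, adjusted p = 9.4e-29) at 42 µg/mL and 1.60 ± 0.08 (SE, adjusted p = 6.5e-24) at 210 µg/mL, by edgeR's quasi-likelihood test with Benjamini-Hochberg adjustment over 16641 genes. This test is behind every adjusted p of a log2 change for which DESeq2 is not named. Adjusted p of dose slopes are from exact permutation tests. MT-RNR1 rose more, and was the member with the largest change at the top dose. It had 42197, 45569 and 37476 CPM at 8.4 µg/mL, 49169, 51288 and 52508 CPM at 42 µg/mL and 27514, 31388 and 31287 CPM at 210 µg/mL, against 4224, 4265 and 3952 CPM in vehicle. These were 10.1-fold, 12.3-fold and 7.25-fold of vehicle, or log2 changes of 3.33 ± 0.10, 3.62 ± 0.11 and 2.86 ± 0.10 (SE, adjusted p = 8.8e-30). The log2 ratio of MT-RNR1 to MT-RNR2 counts, a measure chosen after the values were seen and given without a test, was -1.12, -1.15 and -1.12 at 8.4 µg/mL, -0.92, -0.92 and -0.86 at 42 µg/mL and -1.01, -1.02 and -1.0 at 210 µg/mL, against -2.27, -2.18 and -2.35 in vehicle. MT-RNR1, which lies closest to the heavy-strand promoters, stood higher relative to its neighbour in all 9 Coptidis libraries. Per kb of gene, MT-RNR1 came after MT-RNR2 at all 3 doses, with 43759.9 ± 4261, 53447 ± 1771 and 31512 ± 2315 CPM per kb at 8.4, 42 and 210 µg/mL, where it ranked 12 of 15 in vehicle.

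**Figure D2:**
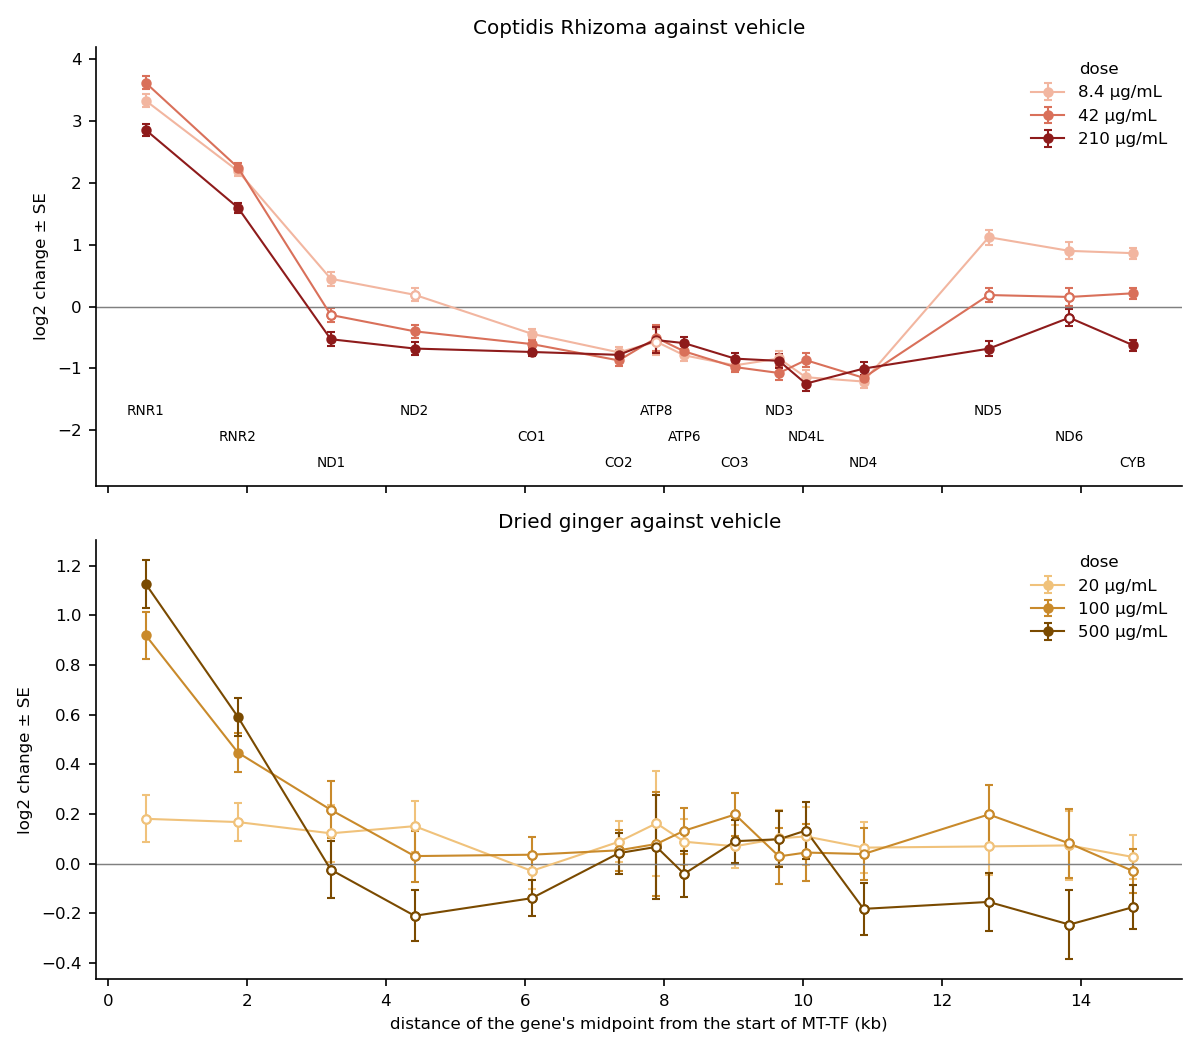
Log2 change against vehicle (± SE) of the 15 tested mitochondrial genes, placed by the distance of their midpoint from the start of MT-TF in kb, for 3 doses of Coptidis Rhizoma (top) and of dried ginger (bottom, with a narrower axis); filled points had an adjusted p under 0.05. The rRNA genes rise under Coptidis at each dose, by 2.86 to 3.62 for MT-RNR1. Under dried ginger they are called at 100 and 500 µg/mL and not at 20 µg/mL. MT-CO1 through MT-ND4 lie below 0 under Coptidis at each dose, and MT-ND5, MT-ND6 and MT-CYB spread out by dose.

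Of the 8 heavy-strand mRNA genes from MT-CO1 to MT-ND4, in the middle of the transcript, 8 fell at 210 and 42 µg/mL of Coptidis and 7 at 8.4 µg/mL. At 210 µg/mL, 2 of the 15 tested members were called higher and 12 lower at an adjusted p under 0.05, where 34.8% of all tested genes were called higher and 34.5% lower. At 42 µg/mL the members called were 3 higher and 9 lower (23.4% and 23.5% of all genes), and at 8.4 µg/mL 6 higher and 7 lower (8.58% and 7.39% of all genes). The median log2 change of the 15 members was -0.44, -0.50 and -0.68 at 8.4, 42 and 210 µg/mL, beside medians over all tested genes of 0.00039, -0.0036 and -0.0028. MT-CO1, the catalytic subunit of complex IV, had 8532, 9541 and 8354 CPM at 210 µg/mL, against 15466, 13442 and 15031 CPM in vehicle, a log2 change of -0.73 ± 0.07 (SE, adjusted p = 1.2e-12). MT-ATP6, a subunit of the proton channel of ATP synthase, had 3272, 3721 and 3120.4 CPM at 210 µg/mL, against 5096, 4847 and 5283 CPM in vehicle, with a log2 change of -0.59 ± 0.09 (SE, adjusted p = 2.1e-07). Neither gene's libraries overlapped between the groups. At 8.4 and 42 µg/mL MT-CO1 had 11702, 11576 and 9129 and 9812, 10418 and 8648 CPM, with log2 changes of -0.44 and -0.61. MT-ATP6 had 3246, 3119 and 2455 and 3146, 3159 and 2919 CPM at those doses, with -0.79 and -0.72, and all 4 changes passed the test. MT-CO1 thus fell least at the lowest dose and MT-ATP6 at the top dose. The lowest change at the top dose was that of MT-ND4L, a small core subunit of complex I, with 636, 528 and 610.2 CPM, against 1437, 1351 and 1418 CPM in vehicle and a log2 change of -1.25 ± 0.12 (SE, adjusted p = 2.8e-13). MT-CO2, MT-CO3, MT-ND3 and MT-ND4, named after their values were seen, had log2 changes of -0.78, -0.84, -0.88 and -1.0 at 210 µg/mL, and of -0.74, -0.95, -0.84 and -1.21 at 8.4 µg/mL. All 8 of these changes passed the test. MT-ATP8, the other mitochondrial subunit of ATP synthase, had -0.57, -0.50 and -0.54 at 8.4, 42 and 210 µg/mL, and passed the test at the last 2. Its call at 42 µg/mL was lost with DESeq2 (adjusted p = 0.056) and without any 1 of the 6 libraries (-0.44, adjusted p = 0.13, without vehicle replicate 2), and that at 210 µg/mL without vehicle replicate 2 or Coptidis replicate 2 or 3 (adjusted p of 0.054 to 0.07).

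MT-ND5 and MT-CYB, at the far end of the heavy-strand transcript, followed another course, which depended on the dose. So did MT-ND6, which lies between them on the map but is transcribed from the light strand. MT-CYB, the mitochondrial subunit of complex III, had 10034, 11373 and 9743 CPM at 8.4 µg/mL, 6535, 7264 and 6056 CPM at 42 µg/mL and 3625, 3879 and 3610.4 CPM at 210 µg/mL, against 5858, 5290.1 and 5954 CPM in vehicle. The lowest dose stood above vehicle and the top dose below it, without overlap. The log2 changes were 0.87 ± 0.09 (SE, adjusted p = 1.3e-10) and -0.62 ± 0.09 (SE, adjusted p = 1.9e-08) at 8.4 and 210 µg/mL. At 42 µg/mL the change of 0.22 ± 0.09 (SE, adjusted p = 0.04) was lost on scaling by library totals (0.053, adjusted p = 0.62) and without replicate 1 or 2 of Coptidis or of vehicle (0.15 to 0.23, adjusted p of 0.052 to 0.21). MT-ND6, the light-strand subunit of complex I, had 1053, 1042 and 935 CPM at 8.4 µg/mL, 638, 626 and 543 CPM at 42 µg/mL and 451, 515 and 467 CPM at 210 µg/mL, against 566, 516 and 539 CPM in vehicle. It rose at 8.4 µg/mL (0.90 ± 0.14 SE, adjusted p = 2.8e-06), and its changes at 42 and 210 µg/mL (0.16 ± 0.14 and -0.18 ± 0.14) did not pass the test. MT-ND5, a proton-pumping subunit of complex I named after its values were seen, had 9005, 9666 and 6853 CPM at 8.4 µg/mL, 4421, 4876 and 4047 CPM at 42 µg/mL and 2343, 2557 and 2413 CPM at 210 µg/mL, against 3899, 3747 and 4071 CPM in vehicle. Its log2 changes were 1.12 ± 0.12 (SE, adjusted p = 3.1e-10), 0.19 ± 0.12 (SE, adjusted p = 0.2) and -0.68 ± 0.12 (SE, adjusted p = 1.4e-06) in that order of doses. In the order of levels per length, MT-CYB stood next after the rRNAs at 8.4 µg/mL, with 9100.3 ± 762 CPM per kb, and MT-ATP8 in place of MT-ND6 stood last, with no overlap between them. The library kit keeps strand, but whether strand was used in counting is not given in the sources used here, so light-strand and heavy-strand RNA cannot be told apart at MT-ND6.

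At the lowest dose of Coptidis a change of direction fell between MT-ND4 and MT-ND5, which are adjacent but for 3 tRNA genes. At 42 µg/mL the change of MT-ND5 did not pass the test, and at 210 µg/mL both genes were called lower. At 8.4 µg/mL, MT-ND4 had 5335, 5182 and 3902 CPM, against 11395, 9887 and 12112 CPM in vehicle, while MT-ND5 was 2.18-fold of vehicle. MT-ND4 held 7.83% of the mRNA counts of the mitochondrial genome at that dose and 15.9% in vehicle, and MT-ND5 13.8% and 5.6%, a measure that no scaling between libraries can alter. For both genes the libraries at 8.4 µg/mL and in vehicle did not overlap in CPM. The log2 ratio of MT-ND5 and MT-CYB to the 7 mRNA genes from MT-CO2 to MT-ND4 was -0.077, 0.10 and 0.16 at 8.4 µg/mL, -0.76, -0.66 and -0.70 at 42 µg/mL and -1.67, -1.72 and -1.60 at 210 µg/mL, against -1.89, -1.86 and -1.87 in vehicle. It was chosen after the values were seen and has no test. In the other groups it lay between -2.12 and -1.78. The tRNA genes at the boundary, for histidine, serine and leucine, are shown because no count fell in any of them. They lie end to end on the + strand of GRCh38, at chrM:12138-12206, chrM:12207-12265 and chrM:12266-12336.
MT-TH: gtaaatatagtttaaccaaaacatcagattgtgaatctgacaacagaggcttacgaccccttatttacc
MT-TS2: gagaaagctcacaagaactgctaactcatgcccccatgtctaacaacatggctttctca
MT-TL2: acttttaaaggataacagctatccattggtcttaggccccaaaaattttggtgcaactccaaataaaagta

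A step also separated rRNA and mRNA, though at 8.4 µg/mL it was in size and not in direction. MT-RNR2 and MT-ND1 flank a single tRNA gene, MT-TL1, for another leucine tRNA, which holds the binding site of the transcription terminator MTERF1. It is shown because the largest step between neighbours at 42 and 210 µg/mL, from MT-RNR2 to MT-ND1, lies across it, at chrM:3230-3304 on the + strand.
MT-TL1: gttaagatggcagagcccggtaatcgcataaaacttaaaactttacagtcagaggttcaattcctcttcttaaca
MT-ND1, a core subunit of complex I, had 7577, 6701 and 5432 CPM at 8.4 µg/mL, 4392, 5014 and 3732 CPM at 42 µg/mL and 3287, 3848 and 2871 CPM at 210 µg/mL, against 4869, 4199 and 5354 CPM in vehicle. The lowest dose lay just above the highest vehicle library, the middle dose overlapped vehicle and the top dose lay below it. Its log2 change was 0.45 ± 0.11 (SE, adjusted p = 0.0037), -0.13 ± 0.11 (SE, adjusted p = 0.36) and -0.53 ± 0.11 (SE, adjusted p = 6.7e-05) at the 3 doses, and the rise at 8.4 µg/mL did not pass the test without vehicle replicate 2 or Coptidis replicate 1 (adjusted p = 0.056 and 0.064). MT-ND2, the next mRNA, had 0.19, -0.40 and -0.68, of which the last 2 passed the test.

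Where genes overlap, their separate values are uncertain, because reads in the shared bases can be split between them. MT-ATP8 and MT-ATP6 share 46 bases and are carried on 1 mRNA, as are MT-ND4L and MT-ND4, which share 7. The shared bases are shown in capitals with 12 flanking bases on each side, on the + strand of GRCh38, at chrM:8515-8584 for the ATP synthase pair and chrM:10748-10778 for the complex I pair.
MT-ATP8/MT-ATP6: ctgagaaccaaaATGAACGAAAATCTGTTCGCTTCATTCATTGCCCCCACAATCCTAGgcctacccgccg
MT-ND4L/MT-ND4: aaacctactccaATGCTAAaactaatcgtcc
All 4 genes were called lower at 210 µg/mL of Coptidis. The log2 changes were -0.54 ± 0.21 for MT-ATP8 and -0.59 ± 0.09 for MT-ATP6, and -1.25 ± 0.12 for MT-ND4L and -1.0 ± 0.10 for MT-ND4 (± SE).

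Within the Coptidis series, members at both ends of the heavy-strand transcript and MT-ND6 were lower at the top dose than at the lowest. Between 210 and 8.4 µg/mL, 8 of the 15 members were called lower and 0 higher, where 32.8% of all genes were called lower. MT-ND5 and MT-CYB changed most, with log2 changes of -1.80 ± 0.12 (SE, adjusted p = 1.5e-18) and -1.49 ± 0.09 (SE, adjusted p = 2.6e-20), and MT-ND6 had -1.08 ± 0.14 (SE, adjusted p = 2.4e-09). MT-ND1 and MT-ND2, the first mRNA genes after the rRNAs, had -0.98 ± 0.12 (SE, adjusted p = 2e-10) and -0.87 ± 0.10 (SE, adjusted p = 2.5e-10). The other 3 called were MT-RNR2, MT-RNR1 and MT-CO1, with -0.59 ± 0.08, -0.47 ± 0.09 and -0.29 ± 0.07, and none of the 7 genes from MT-CO2 to MT-ND4 passed the test, with log2 changes of -0.10 to 0.21. Neighbouring doses were compared after these values were seen. Between 210 and 42 µg/mL 8 members were called lower (27.8% of all genes), and between 42 and 8.4 µg/mL 5 were called lower and 1 higher (15.9% and 15.8% of all genes). Of the 8, MT-ND1, MT-ND2 and MT-ND6 lost the call without replicate 2 at 42 µg/mL, MT-ND2 also without replicate 1 at 42 or 3 at 210 µg/mL, and MT-ND6 also without replicate 1 at 42 or 1 or 3 at 210 µg/mL, with DESeq2 (adjusted p = 0.055) and with library totals (adjusted p = 0.062). The 1 member higher at 42 than at 8.4 µg/mL was MT-RNR1 (0.29 ± 0.09 SE, adjusted p = 0.015), which did not pass the test without replicate 3 at 8.4 µg/mL (0.22, adjusted p = 0.11). The log2 ratio of MT-ND6 to the 12 heavy-strand mRNAs changed by -0.27 per dose step over the 9 libraries (exact permutation p = 0.00119, two-sided, the smallest that 1680 arrangements allow, adjusted p = 0.00714 over 18 tests). That of the 3 complex IV mRNAs to the 7 complex I mRNAs changed by 0.32 per step, with the same p-values from the exact permutation test, and was -0.56 ± 0.019, -0.18 ± 0.023 and 0.069 ± 0.026 at 8.4, 42 and 210 µg/mL, against 0.052 ± 0.068 in vehicle (SD, n = 3 each). The ratio of rRNA to mRNA had no such order (0.0024 per step, exact permutation p = 0.989), and was highest at 42 µg/mL. The share of all counts in the 37 genes changed by -2.71 percentage points per step (exact permutation p = 0.0107, adjusted p = 0.0643 over 6 extracts). That missed the threshold, and passed it when the rRNA genes were left out of the share (-0.863 points per step, adjusted p = 0.0214) and without replicate 3 at 8.4 µg/mL (-3.35 points per step, adjusted p = 0.0107).

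**Figure D3:**
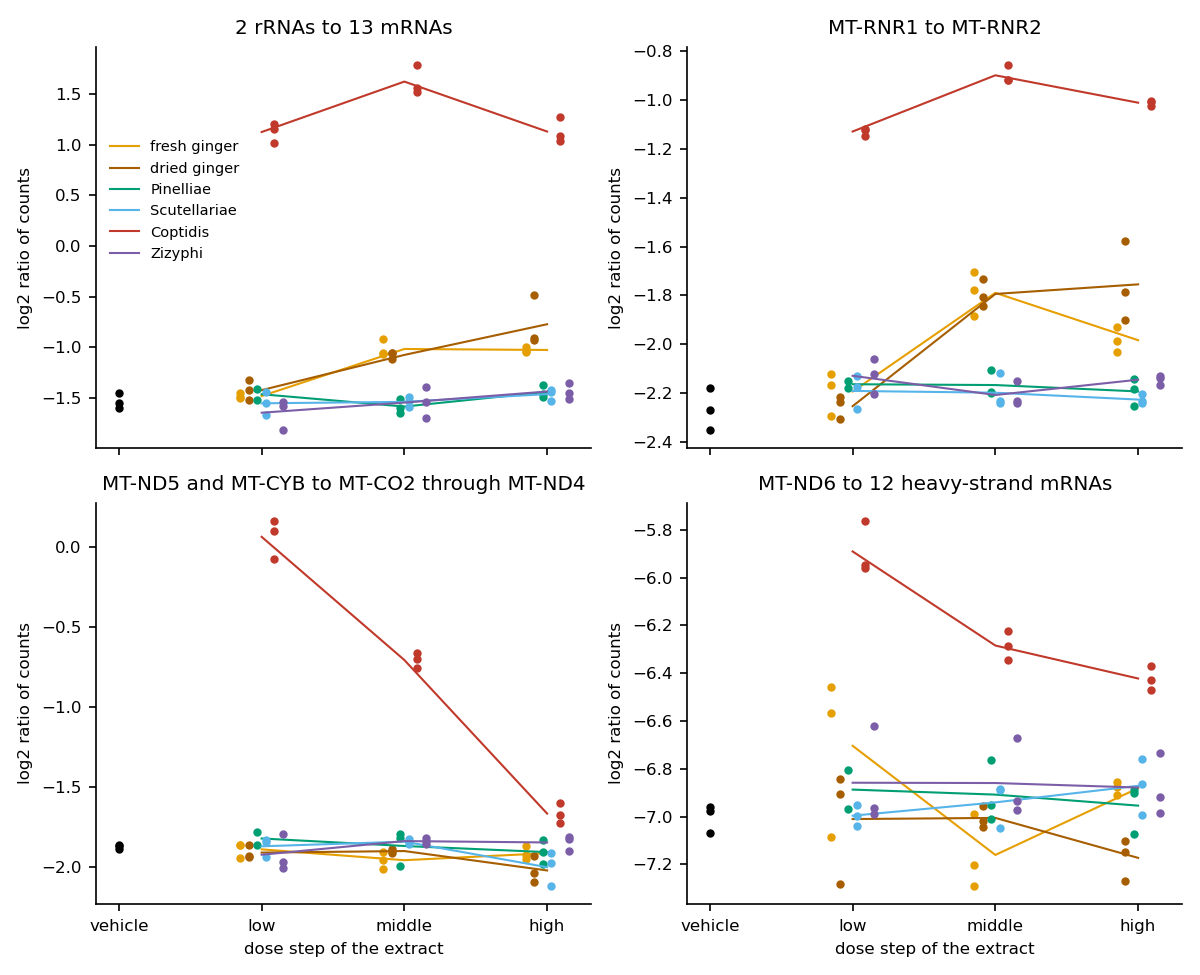
Log2 ratios of counts within each library (points) for the 2 rRNAs to the 13 mRNAs, MT-RNR1 to MT-RNR2, MT-ND5 and MT-CYB to the mRNAs from MT-CO2 through MT-ND4, and MT-ND6 to the 12 heavy-strand mRNAs, for vehicle and the low, middle and high dose of each extract; lines join group means. The Coptidis means lie above those of all other groups in each panel and decline with dose in the lower 2 panels, to -6.42 ± 0.051 for MT-ND6, against -7.00 ± 0.059 in vehicle, and the gingers lie above vehicle at the middle and high dose in the upper 2.

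Coptidis Rhizoma and Zizyphi Fructus carry one number in the sample titles, whose meaning is not given, and vehicle carries another, so a difference from vehicle and a difference between these sets of samples cannot be told apart from those comparisons alone. Both gingers share a further number, and Pinelliae and Scutellariae yet another, so the same limit holds for their comparisons with vehicle. The titles of all libraries used, vehicle included, also carry the label BatchA. The 9 Zizyphi libraries, of the same set as Coptidis, held 2.23 to 3.1% of counts in rRNA and 7.07 to 8.5% in mRNA, against 2.43 to 2.51% and 6.66 to 7.42% in vehicle. Nuclear sequences that copy the mitochondrial genome also draw reads, and 3 of them held more than 50 CPM in vehicle. MTATP6P1, MTND2P28 and MTCO1P12 had 410.5, 106 and 47.6 CPM at 210 µg/mL of Coptidis, against 583, 235 and 105 CPM in vehicle, and their log2 changes (-0.51, -1.15 and -1.14) had the sign of those of MT-ATP6, MT-ND2 and MT-CO1. Such near-identical copies make the split of reads between them uncertain. Of 7 copies tested, 1 was called higher and 4 lower at 210 µg/mL (34.8% and 34.5% of all genes), and all 19 listed copies together held 507 to 646 CPM at 210 µg/mL and 871 to 973 CPM in vehicle. RNAs that lack a poly(A) tail were followed because rRNA levels in an mRNA library depend on enrichment. Of 6 tested, 0, 0 and 2 were called at 8.4, 42 and 210 µg/mL, the last being SNORD3A (2.09) and RPPH1 (1.62). The summed level of all 8 such RNAs listed, tested or not, was 12.5 to 23.6, 12.9 to 21.7 and 19.1 to 36.3 CPM at 8.4, 42 and 210 µg/mL, against 16.6 to 24.6 CPM in vehicle. With dried ginger this summed level was 14.3 to 32.8 and 19.3 to 85.3 CPM at 100 and 500 µg/mL. With fresh ginger it was 29.8 to 129.6 and 18.6 to 48.1 CPM at these doses. All fresh ginger libraries at 100 µg/mL were thus above every vehicle library. The part of these RNAs in the rRNA values of Coptidis or ginger was not tested.

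Both ginger extracts raised the 2 rRNAs at 100 and 500 µg/mL, and no mRNA passed the test there. With dried ginger at 500 µg/mL, MT-RNR1 had 11867, 7138 and 8149.8 CPM, against 4224, 4265 and 3952 CPM in vehicle, and MT-RNR2 had 35364, 26666 and 28120.1 CPM, against 20382, 19317 and 20176 CPM. Replicate 1 was the highest of the 3 treated libraries for both genes, and each treated library was above all vehicle libraries. The log2 changes were 1.13 ± 0.10 (SE, adjusted p = 3.5e-14) and 0.59 ± 0.08 (SE, adjusted p = 9.2e-09). These 2 were the members called of 15, with 21.5% of all genes called higher, and the lowest change was that of MT-ND6 (-0.25 ± 0.14, adjusted p = 0.16). It had 427, 449 and 491 CPM, against 566, 516 and 539 CPM in vehicle. At 100 µg/mL the same 2 genes were called (0.92 ± 0.10 and 0.45 ± 0.08), where 9.76% of all genes were higher. At 20 µg/mL edgeR called 0 members with 0.0841% of all genes called in either direction, DESeq2 called 0, and 1 had an unadjusted p under 0.05. Library replicate 1 at 500 µg/mL stood apart from its 2 replicates in a chi-square comparison of counts, and without it the log2 changes at that dose were 0.88 and 0.45, with both calls kept. The 13 mRNAs at 500 µg/mL had log2 changes of -0.25 to 0.13.

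With fresh ginger at 500 µg/mL, MT-RNR1 had 7155, 6765 and 7357 CPM, against 4224, 4265 and 3952 CPM in vehicle, and MT-RNR2 had 29288, 26804 and 28044 CPM, against 20382, 19317 and 20176 CPM. The groups did not overlap for either gene, and the log2 changes were 0.77 ± 0.10 (SE, adjusted p = 1.7e-09) and 0.49 ± 0.08 (SE, adjusted p = 5.1e-07). MT-CO1 had the lowest change (-0.10 ± 0.07), with 14755, 13275 and 12969.9 CPM, against 15466, 13442 and 15031 CPM in vehicle, libraries that overlapped. These 2 rRNAs were again the members called at 500 µg/mL (23.5% of all genes higher) and at 100 µg/mL (0.88 ± 0.10 and 0.40 ± 0.08, with 12.1% of all genes higher). At 20 µg/mL the members called were 2 others, MT-ATP8 (1.08 ± 0.21 SE, adjusted p = 0.0021) and MT-ND6 (0.49 ± 0.14 SE, adjusted p = 0.029), where 2.75% of all genes were higher. MT-ATP8 had 1102, 407 and 959.7 CPM, against 382, 422 and 360.1 CPM in vehicle, so that replicates 1 and 3 were high and replicate 2 was at the level of vehicle. MT-ND6 had 952, 544 and 784 CPM in the same libraries, against 566, 516 and 539 CPM in vehicle. Its call was lost without replicate 1 (0.30, adjusted p = 0.24), without replicate 3 and without any 1 of the vehicle libraries. Without replicate 2, 4 members were called. MT-ATP8's call was kept when any 1 library was left out.

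Between the doses of each ginger, the rRNAs were higher at 500 than at 20 µg/mL. The log2 changes were 0.95 ± 0.10 (SE, adjusted p = 8e-12) and 0.42 ± 0.08 (SE, adjusted p = 1e-05) for MT-RNR1 and MT-RNR2 in dried ginger, and 0.50 ± 0.10 (SE, adjusted p = 1.9e-05) and 0.29 ± 0.08 (SE, adjusted p = 0.0015) in fresh ginger. In dried ginger MT-ND2 was the 1 member called lower (-0.36 ± 0.10 SE, adjusted p = 0.0036), where 20.9% of all genes were higher and 20.1% lower. In fresh ginger 3 members were called lower, MT-ATP8, MT-ND4L and MT-ND6 (-1.06 ± 0.21, -0.28 ± 0.12 and -0.34 ± 0.14), with 24.4% of all genes higher and 23.6% lower. Both MT-ND4L and MT-ND6 lost the call with DESeq2 (adjusted p = 0.064 and 0.058). MT-ND4L also lost it without replicate 1 or 3 at either dose, and MT-ND6 without replicate 1 or 3 at 20 µg/mL or any 1 replicate at 500 µg/mL (-0.17 and -0.14 without replicate 1 at 20 µg/mL). In dried ginger 6 members in place of 3 were called without replicate 2 at 20 µg/mL. The log2 ratio of rRNA to mRNA counts changed by 0.33 per dose step in dried ginger (exact permutation p = 0.00119, adjusted p = 0.00714 over 18 tests) and by 0.23 in fresh ginger (exact permutation p = 0.0131, adjusted p = 0.0471). The second missed the threshold when MT-ND4L and MT-ATP8 were left out (adjusted p = 0.0557) and without any 1 library at 20 µg/mL or replicate 1 or 2 at 100 µg/mL (adjusted p of 0.0707 to 0.075). In dried ginger the ratio was -1.42 ± 0.10, -1.08 ± 0.036 and -0.77 ± 0.25 at 20, 100 and 500 µg/mL, against -1.53 ± 0.07 in vehicle (SD, n = 3 each).

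Fresh and dried ginger differed in 1 member at 500 µg/mL. MT-RNR1 was lower with fresh than with dried ginger (-0.35 ± 0.09 SE, adjusted p = 0.036), where 0.871% of all genes were lower, and it lost the call without any 1 of the fresh ginger libraries, with only the 2 groups in the fit (adjusted p = 0.51) and without dried ginger replicate 1, where the difference was -0.11 (adjusted p = 0.78). At 100 µg/mL edgeR and DESeq2 both called 0 members, 0 had an unadjusted p under 0.05, and 0.379% of all genes were called in either direction, with log2 differences of -0.25 to -0.0015. At 20 µg/mL edgeR called 0 members (0.0481% of all genes), DESeq2 called 1 and 3 had an unadjusted p under 0.05. Without fresh ginger replicate 2, 2 were called.

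**Figure D4:**
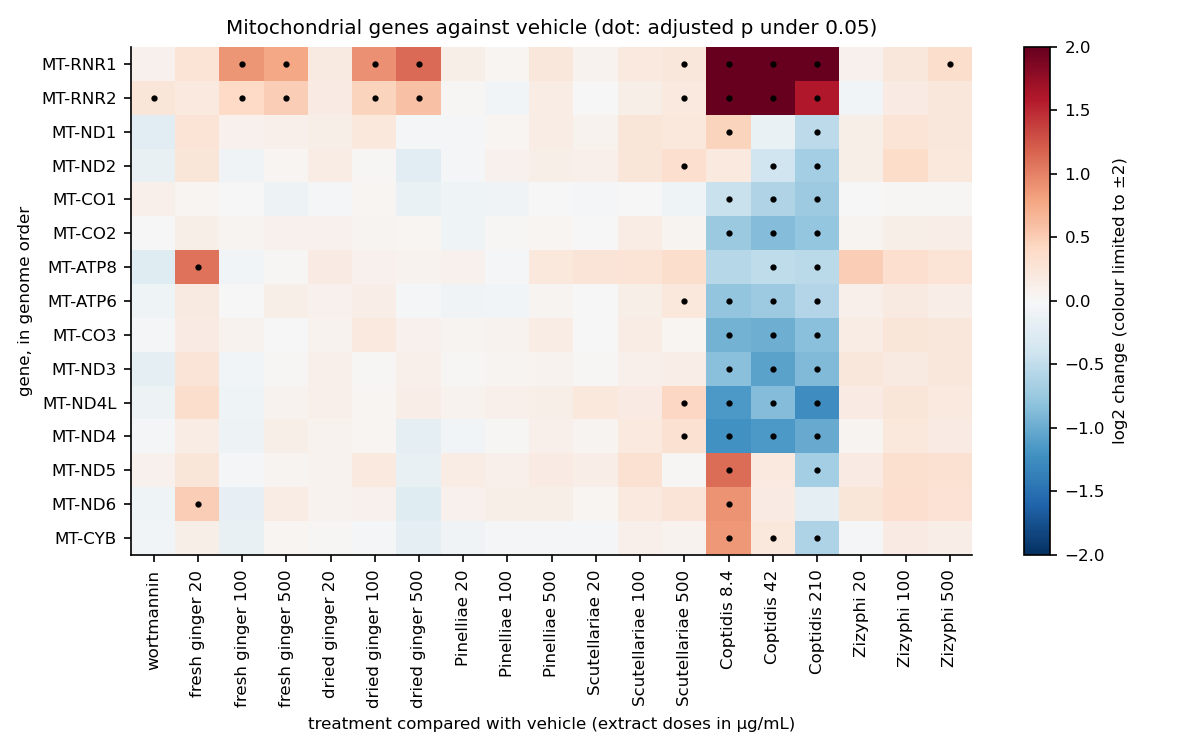
Log2 change against vehicle of the 15 tested mitochondrial genes (rows, in genome order) under each treatment (columns); a dot marks an adjusted p under 0.05 and colours stop at ±2. The rRNA rows are called under Coptidis at 3 doses and both gingers at 2 doses, and 7 to 12 of the 13 mRNA rows are below 0 and called under Coptidis.

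Scutellariae Radix at 500 µg/mL raised 6 of the 15 members by small amounts, with 24.7% of all genes called higher. The largest change was that of MT-ND4L (0.41 ± 0.12 SE, adjusted p = 0.0027), with 1696, 1833 and 2060.3 CPM, against 1437, 1351 and 1418 CPM in vehicle. The others called were MT-ND2, MT-ND4, MT-RNR1, MT-ATP6 and MT-RNR2, at 0.33, 0.31, 0.23, 0.22 and 0.19. MT-ND4L kept its call when any 1 library was left out. MT-RNR1, MT-RNR2 and MT-ATP6 lost theirs without any 1 vehicle library and without Scutellariae replicate 2 or 3, MT-ND2 without Scutellariae replicate 2 and MT-ND4 without vehicle replicate 2. MT-RNR1 and MT-ATP6 also lost theirs with DESeq2 (adjusted p = 0.052 and 0.057). MT-CO1 had the lowest change (-0.092 ± 0.07), with 13283, 14503 and 13450.5 CPM, against 15466, 13442 and 15031 CPM in vehicle. The log2 ratio of complex IV to complex I mRNAs was -0.22, -0.24 and -0.22 at 500 µg/mL, against 0.089, 0.092 and -0.027 in vehicle, with no overlap. It changed by -0.10 per dose step (exact permutation p = 0.0131, adjusted p = 0.0471 over 18 tests), which missed the threshold without MT-ND4L and MT-ATP8 (adjusted p = 0.0557) and without any 1 library but replicate 2 at 20 or 100 µg/mL (adjusted p of 0.0514 to 0.118). At 100 µg/mL edgeR called 0 members (14.6% of all genes in either direction), DESeq2 called 0 and 4 had an unadjusted p under 0.05; without replicate 2 at that dose 2 were called. At 20 µg/mL edgeR and DESeq2 called 0 and 0 had an unadjusted p under 0.05 (4.74% of all genes). Between 500 and 20 µg/mL 2 members were called higher, MT-RNR2 (0.20 ± 0.08) and MT-ND4 (0.26 ± 0.10), where 24.5% of all genes were higher, and 0 were called without replicate 1 at 20 µg/mL or replicate 2 or 3 at 500 µg/mL, and 4 without replicate 2 at 20 µg/mL or replicate 1 at 500 µg/mL.

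Zizyphi Fructus, Pinelliae Tuber and wortmannin each had 0 or 1 member called at every dose. With Zizyphi at 500 µg/mL, MT-RNR1 had 4893, 5331 and 5662 CPM, against 4224, 4265 and 3952 CPM in vehicle. Its change of 0.35 ± 0.09 (SE, adjusted p = 0.025) was the 1 call, beside 2.09% of all genes called higher, and it was lost without any 1 of the 3 vehicle libraries and without replicate 2 or 3 of the extract (adjusted p between 0.075 and 0.14). MT-CO1 had the lowest change (0.019 ± 0.07), with 14644, 14389 and 15479 CPM, against 15466, 13442 and 15031 CPM in vehicle. At 100 µg/mL edgeR and DESeq2 called 0 members (0.228% of all genes), though 9 had an unadjusted p under 0.05 and all 15 log2 changes were positive (0.022 to 0.36). At 20 µg/mL edgeR and DESeq2 called 0 and 1 had an unadjusted p under 0.05 (1.99% of all genes). Between 500 and 20 µg/mL MT-RNR2 alone was called (0.28 ± 0.08 SE, adjusted p = 0.017, with 4.39% of all genes higher), and the call was lost without replicate 1 at 20 µg/mL, which stood apart from its replicates (0.22, adjusted p = 0.24), without replicate 2 at that dose and without replicate 2 or 3 at 500 µg/mL, while 2 were called without replicate 3 at 20 µg/mL. It was also lost with only the 2 groups in the fit (adjusted p = 0.44). With no filter on low counts, 13 and 14 members were called at 100 and 500 µg/mL of Zizyphi. That fit still left out the 11 tRNA genes without a count in any library. The shares of all genes given above belong to the filtered fit, and those of the unfiltered fit are not given here.

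Under Pinelliae Tuber edgeR and DESeq2 called 0 members at each dose, where 0.00601%, 0.204% and 4.57% of all genes were called in either direction at 20, 100 and 500 µg/mL. An unadjusted p under 0.05 was found for 1 member at 500 µg/mL and for 0 at the lower doses. MT-RNR1 had 4988, 4441 and 5145 CPM at 500 µg/mL, against 4224, 4265 and 3952 CPM in vehicle, the largest change of the dose (0.23 ± 0.09 SE, adjusted p = 0.17). MT-CYB had 5313, 5517 and 6023 CPM, against 5858, 5290.1 and 5954 CPM in vehicle, the lowest change (-0.021 ± 0.09). Between 500 and 20 µg/mL edgeR and DESeq2 called 0, 0 had an unadjusted p under 0.05, and 1.9% of all genes were called. Wortmannin raised MT-RNR2 (0.24 ± 0.08 SE, adjusted p = 0.014), with 23754, 23967 and 22799 CPM, against 20382, 19317 and 20176 CPM in vehicle, the largest change and the 1 call where 16.2% of all genes were higher. That call was lost without vehicle replicate 2 (0.21, adjusted p = 0.072). MT-ATP8 had the lowest change (-0.25 ± 0.21, adjusted p = 0.4), with 317, 284 and 378 CPM, against 382, 422 and 360.1 CPM in vehicle. MT-ND1 had 4268, 4314 and 3805 CPM with wortmannin, against 4869, 4199 and 5354 CPM in vehicle, and MT-CYB had 5713, 5454 and 5326 CPM, against 5858, 5290.1 and 5954 CPM in vehicle. Both overlapped vehicle and did not pass the test.

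**Figure D5:**
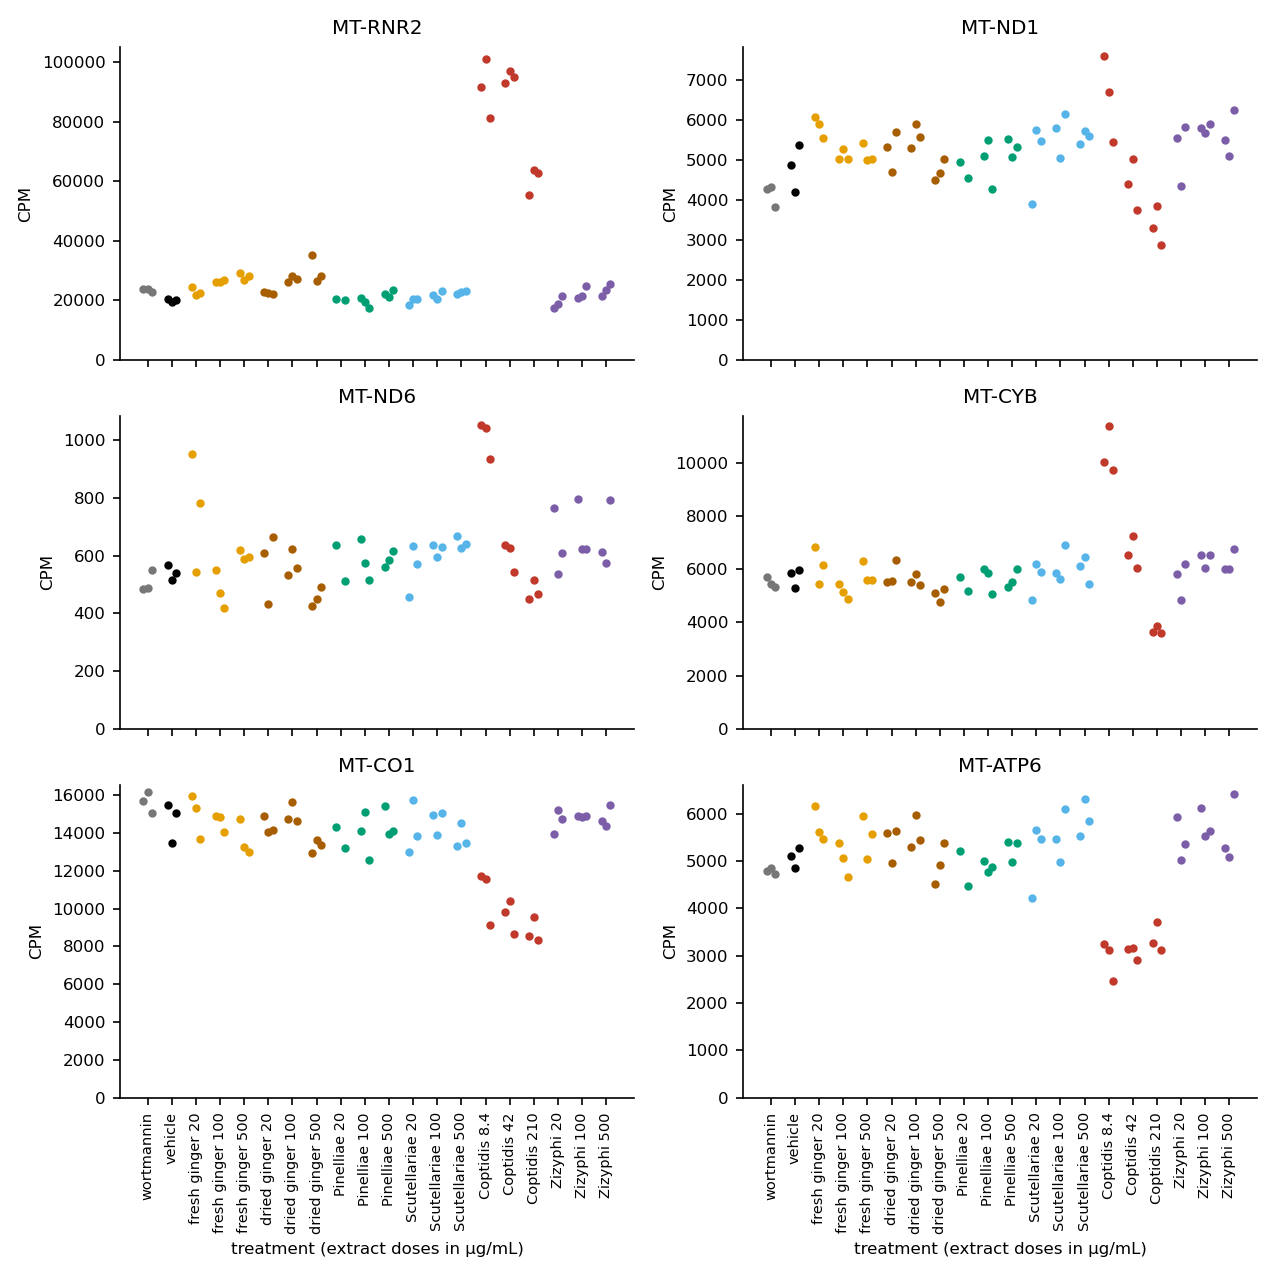
Level in CPM of 1 gene per role in each of the 59 libraries, by treatment. MT-RNR2 lies higher and MT-CO1 and MT-ATP6 lower in the 9 Coptidis libraries than in all others, and the means of MT-ND6 and MT-CYB are highest at 8.4 µg/mL of Coptidis, with MT-ND6 at 1010.1 CPM, against 541 CPM in vehicle.

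Nuclear genes that serve the mitochondrial genome were described beside its own. Their counts are to be read against all tested genes, of which 34.8% were called higher and 34.5% lower at 210 µg/mL of Coptidis, and 8.58% and 7.39% at 8.4 µg/mL. Of 15 factors of mitochondrial DNA transcription and replication, Coptidis at 210 µg/mL had 3 higher and 7 lower of 15 (median log2 change -0.12), with POLRMT, the mitochondrial RNA polymerase, at 0.54 and TOP1MT, a topoisomerase, at 0.46, while MGME1, an exonuclease of DNA replication, was at -0.67 and MTERF4, a ribosome assembly factor, at -0.53. At 8.4 µg/mL the counts were 2 higher and 2 lower of 15, with POLRMT and TOP1MT higher (0.22 and 0.20) and MGME1 and MTERF1 lower (-0.26 and -0.24). Of 21 genes of mitochondrial RNA processing and stability, 210 µg/mL had 11 higher and 6 lower of 21 (median 0.12). FASTKD5, which acts in processing of junctions without tRNAs, and REXO2, which removes short RNA pieces, were highest (0.78 and 0.61), and FASTK and FASTKD3, relatives of FASTKD5, lowest (-0.75 and -0.65). At 8.4 µg/mL the counts were 5 higher and 0 lower of 21, led by LRPPRC, which stabilises mitochondrial mRNA (0.18), and SUPV3L1, the helicase of RNA decay (0.16). Wortmannin had 0 higher and 8 lower of 15 and 0 higher and 15 lower of 21 in these lists, with 16.2% of all genes higher and 16% lower, and its lowest members were TWNK, the replicative helicase (-0.36), and SUPV3L1 (-0.36). The 2 lists had 3 higher and 4 lower of 15 and 8 higher and 1 lower of 21 with dried ginger at 500 µg/mL, 4 higher and 5 lower of 15 and 8 higher and 2 lower of 21 with fresh ginger, 4 higher and 3 lower of 15 and 9 higher and 3 lower of 21 with Scutellariae, 2 higher and 3 lower of 15 and 0 higher and 1 lower of 21 with Pinelliae, and 0 higher and 3 lower of 15 and 0 higher and 0 lower of 21 with Zizyphi. Over all tested genes, the shares called lower beside those already given as called higher were 20.9% with dried ginger, 22.5% with fresh ginger, 25.5% with Scutellariae and 1.53% with Zizyphi, and with Pinelliae 2.64% were called higher and 1.93% lower.

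The nuclear subunits of the respiratory complexes were counted in the same way, where 34.8% of all tested genes were called higher and 34.5% lower at 210 µg/mL of Coptidis. At 210 µg/mL complex I had 3 higher and 20 lower of 37 (median log2 change -0.19), complex II, which has no mitochondrial gene, 0 higher and 3 lower of 4 (median -0.22), complex III 0 higher and 3 lower of 9 (median -0.12), complex IV 1 higher and 2 lower of 11 (median 0.016) and ATP synthase 0 higher and 13 lower of 15 (median -0.25). The share called lower in complex III was close to that of all genes. The lowest were NDUFB10 of complex I (-0.78) and ATP5MC1 of ATP synthase (-0.70), and the highest was NDUFV2 of complex I (0.60). At 8.4 µg/mL, where 8.58% of all genes were called higher and 7.39% lower, the same 5 groups had 1 higher and 0 lower of 37, 0 higher and 1 lower of 4, 3 higher and 0 lower of 9, 0 higher and 0 lower of 11 and 0 higher and 0 lower of 15, in that order, with medians of 0.027, 0.023, 0.05, 0.046 and 0.039. At that dose 7 mitochondrial mRNAs from MT-CO1 to MT-ND4 were called lower, and MT-ND1, MT-ND5, MT-ND6 and MT-CYB were called higher. Of 8 nuclear regulators of respiratory genes, 210 µg/mL had 3 higher and 2 lower of 8, with ESRRA and PPARGC1B higher (0.97 and 0.50) and PPARGC1A and NRF1 lower (-0.46 and -0.44), and 8.4 µg/mL had 3 higher and 0 lower of 8. The counts at 210 µg/mL were close to the shares of all genes.

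The libraries held 21582603 to 31392069 counts, of which 1908285 to 5059319 fell in the 37 genes. The labelled cell line was checked by 8 hepatocyte genes, whose summed level was 39169 to 40284, 36699.7 to 37883 and 23814 to 24840.5 CPM at 8.4, 42 and 210 µg/mL of Coptidis, against 42077 to 42851 CPM in vehicle, and 23814 to 48766 CPM over all groups. All 8 were called lower at 210 µg/mL of Coptidis, where 34.5% of all genes were. Of 8 markers of blood, stromal, endothelial and squamous cells, KRT5 was at 0 in every library, and the summed level was 79.9 to 89.2, 88.8 to 90.7 and 125 to 142 CPM at 8.4, 42 and 210 µg/mL of Coptidis, against 82 to 86.5 CPM in vehicle. Their part in the mitochondrial values was not tested. A chi-square comparison of replicate counts set 3 libraries apart from their replicates, dried ginger replicate 1 at 500 µg/mL, Pinelliae replicate 3 at 100 µg/mL and Zizyphi replicate 1 at 20 µg/mL, and all replicate pairs differed by more than counting error.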

How the data were processed

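RNA of 59 HepG2 libraries was read as 100-base pairs from a directional mRNA kit, per the labels' protocols. The submitters' processing notes name Trim Galore 0.6.5, FastQC 0.11.9, STAR 2.7.3a, RSEM 1.3.3 and GRCh38; annotation and strand setting of the counting are not given there. The authors deposited expected counts per gene as estimated by RSEM, of which 24.4% of the nonzero values were not whole, and these were rounded. Of 267 columns in the table, 59 name a sample used here and 208 do not and were not used. Identifiers were matched to GENCODE 29, which gave 57055 of 60675 a symbol.

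Genes passing edgeR's filterByExpr, 16641, were scaled by TMM and fitted with 20 group means over all 59 libraries by edgeR 4.0.16's quasi-likelihood test (limma 3.58.1, R 4.3.3), with Benjamini-Hochberg adjustment over all of them and a threshold of 0.05. The dispersion common to all genes was 0.00195, so typical replicate variation was 4.41% of a gene's level. CPM are TMM-scaled counts per 1000000, per kb where divided by gene length. DESeq2 1.42.0 was an alternative. Dose slopes of shares and log2 ratios were tested by exact permutation of dose labels over the libraries of an extract (scipy 1.17.1, Python 3.11.15). Of these steps, only the edgeR fit was tested on simulated counts, with known changes. Totals of 21582603 to 31392069 counts limit genes with few counts only. The members, gene lists and ratios were chosen with earlier results of these data known. Values per library are given for MT-RNR2, MT-ND1, MT-ND6, MT-CYB, MT-CO1 and MT-ATP6 and for the members with the largest and the lowest change at wortmannin and each top dose, and for list genes the 2 largest called changes in each direction. Other members with values per library were chosen after their values were seen. Intervals of counting error and the 3-count limits cover counting error only. Replicate numbers did not pair libraries.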

Additional observations from a re-analysis of the deposited data

Results flagged for a closer look

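The tRNA gene MT-TM, left out of every test for its low counts, had 9 counts over the 3 libraries at 42 µg/mL of Coptidis Rhizoma, and 0 in vehicle, where a count of 0 allows up to 3. The counts at 8.4 and 210 µg/mL of Coptidis were 5 and 6, and 1 count was recorded in the other 50 libraries together. No library had more than 5 counts, the gene lies between MT-TQ and MT-ND2 and is shorter than a read. So few counts in a gene chosen for their uneven spread give no level of the tRNA, and no difference between groups was tested or is read from them.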

How the results depend on the processing

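Of 91 called changes of single members, 0 reversed under any alternative. The 6 Coptidis rRNA changes against vehicle kept the call in all 84 refits, with a lowest log2 change of 1.48, and the 8 ginger rRNA changes at 100 and 500 µg/mL in all 112. Of the 39 Coptidis calls against vehicle, 4 were lost in some refit, in 18 of 546. Calls were lost in 0 cases with DESeq2's size factors, 0 with scaling on nuclear genes alone, 0 with no filter, 2 with library totals, 2 with only the groups compared fitted, 6 with DESeq2's test and 2 without the 3 libraries that stood apart, and 22 changes lost the call when some single library was left out. Library totals moved the median of all genes by -0.15, -0.16 and -0.12 (log2) at 8.4, 42 and 210 µg/mL of Coptidis. Reads shared with nuclear copies, the unknown strand setting, tRNA genes shorter than a read, title sets that differ between extracts and vehicle, and unknown separateness of the cultures limit these values.

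Replicate numbers did not pair the libraries: over 88 same-numbered pairs the correlation of deviations from group means was -0.0898 to 0.145 (median 0.00204), and in 0 of 30 comparisons were all pairs over 0.1. With the replicate number as a block, 2 calls were lost, MT-ATP6 at 500 µg/mL of Scutellariae (0.22, adjusted p = 0.0512) and MT-ATP8 at 42 µg/mL of Coptidis (-0.51, adjusted p = 0.05003).

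Counts of members called moved by over 1.5 times in the following comparisons, against vehicle unless another dose or extract is named, with doses in µg/mL and the count of the reported fit in parentheses. With no filter on low counts they were 2 in Scutellariae 20 (0) and fresh ginger 100 against dried ginger 100 (0), 4 in fresh ginger 100 (2) and dried ginger 20 (0), 5 in wortmannin (1), fresh ginger 500 (2) and Zizyphi 500 against 20 (1), 6 in dried ginger 100 (2), Pinelliae 500 (0), Zizyphi 20 (0) and fresh ginger 20 against dried ginger 20 (0), 7 in fresh ginger 500 against dried ginger 500 (1), 9 in dried ginger 500 (2) and Scutellariae 500 against 20 (2), 10 in Scutellariae 500 (6), dried ginger 500 against 20 (3) and Coptidis 42 against 8.4 (6), 11 in fresh ginger 500 against 20 (5), 12 in fresh ginger 20 (2) and Scutellariae 100 (0), 13 in Zizyphi 100 (0) and Coptidis 210 against 42 (8), 14 in Zizyphi 500 (1). With only the groups compared in the fit they were 0 in Zizyphi 500 against 20 (1), 1 in Pinelliae 20 (0) and Scutellariae 20 (0), 2 in dried ginger 20 (0), 5 in fresh ginger 500 (2), Pinelliae 500 (0) and dried ginger 500 against 20 (3), 6 in dried ginger 500 (2), dried ginger 100 (2) and Scutellariae 500 against 20 (2), 7 in Zizyphi 500 (1) and Zizyphi 100 (0), 8 in wortmannin (1), 9 in Scutellariae 100 (0), 10 in fresh ginger 20 (2), Scutellariae 500 (6) and fresh ginger 500 against 20 (5). Without the 3 libraries that stood apart they were 0 in Zizyphi 500 against 20 (1) and fresh ginger 500 against dried ginger 500 (1), 1 in Pinelliae 500 (0), Zizyphi 100 (0) and fresh ginger 20 against dried ginger 20 (0), 2 in Scutellariae 100 (0) and Zizyphi 500 (1), 5 in Scutellariae 500 against 20 (2), 6 in fresh ginger 20 (2). With library totals they were 4 in Scutellariae 500 against 20 (2), 5 in dried ginger 500 (2), 6 in dried ginger 500 against 20 (3). With DESeq2 they were 1 in fresh ginger 20 against dried ginger 20 (0), 3 in fresh ginger 500 against 20 (5). The shares of all genes called in these other fits are not given here. The counts are therefore not read as results about the members, and the cause of the moves was not tested.

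When 1 library was left out in turn, the count ranged over 0 to 1 for wortmannin, Zizyphi 500 and fresh ginger 500 against dried ginger 500, 0 to 2 for Scutellariae 100, Zizyphi 500 against 20 and fresh ginger 20 against dried ginger 20, 0 to 4 for Scutellariae 500 against 20, 1 to 4 for fresh ginger 20, 2 to 6 for Scutellariae 500, 3 to 6 for fresh ginger 500 against 20 and dried ginger 500 against 20, 5 to 9 for Coptidis 210 against 42. The slopes per dose step ranged over -3.35 to -2.35 for the share of counts in the 37 genes in Coptidis, 0.20 to 0.25 for the log2 ratio of rRNA to mRNA in fresh ginger, -0.15 to -0.049 for that of MT-ND6 to heavy-strand mRNAs in dried ginger, 0.057 to 0.10 for that of complex IV to complex I mRNAs in dried ginger and -0.12 to -0.071 for that of complex IV to complex I mRNAs in Scutellariae. Without the rRNA genes the Coptidis slope of the share was -0.863 percentage points (adjusted exact permutation p = 0.0214, past the threshold). Without MT-ND4L and MT-ATP8 the slope of rRNA to mRNA in fresh ginger was 0.22 and that of complex IV to complex I in Scutellariae -0.10 (adjusted exact permutation p = 0.0557 for both), short of it. A count of at least 10 in 3 libraries left out the same 22 tRNA genes.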
